A study of Homo sapiens with 2 samples.

Results

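The accessible chromatin of ESR1, the gene for estrogen receptor alpha, was described in CAMA-1, an established line of luminal-type breast adenocarcinoma cells. Members were all ATAC-seq peaks that overlapped the GENCODE release 44 body of ESR1 (ENSG00000091831.25, chr6:151656691-152129619, hg38, forward strand, 472929 bp) or the 200 kb on either side of it. This rule took 90 of the 245736 peaks of replicate 1 and 92 of the 259745 peaks of replicate 2. Peaks of the replicates that overlapped by at least 1 bp were joined, which gave 83 regions called in both replicates, of 215195 such regions on all chromosomes. They were numbered from region 1 to region 83 along the chromosome. A further 7 peaks were called in replicate 1 only and 8 in replicate 2 only.

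In ATAC-seq, a transposase (Tn5) cuts accessible DNA and adds sequencing adapters to it. Both libraries came from 50000 untreated CAMA-1 cells grown in DMEM with fetal bovine serum, and they form a single condition, so no groups were compared and no p-value is given. The cells were labelled as epithelial cells from the mammary gland. No histone mark, transcript or receptor binding was analysed here, so that a region away from a TSS is called a region and not an enhancer.

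Estrogen receptor alpha is a nuclear receptor that binds estradiol, dimerises and binds DNA at estrogen response elements, where it recruits coactivators or corepressors. In luminal breast cells it works with the pioneer factors FOXA1 and GATA3, which open chromatin at many of its sites. ESR1 is known for its many alternative promoters, spread over a long stretch before the first coding exon, and for the endocrine therapies directed at its product.

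The windows below carry the main features of the locus and are given 5′ to 3′ on the forward strand of hg38.
The central 300 bp of regions 40 and 34, the strongest body regions after region 51, are shown because they held no match to any of the 7 motifs searched, which would be in capitals.
Region 40, chr6:151763863-151764162: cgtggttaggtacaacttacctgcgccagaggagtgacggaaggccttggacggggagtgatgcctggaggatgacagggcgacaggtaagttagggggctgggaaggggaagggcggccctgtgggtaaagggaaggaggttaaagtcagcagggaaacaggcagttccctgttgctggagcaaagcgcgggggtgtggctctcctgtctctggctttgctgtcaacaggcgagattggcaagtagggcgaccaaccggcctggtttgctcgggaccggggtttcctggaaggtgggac
Region 34, chr6:151706574-151706873: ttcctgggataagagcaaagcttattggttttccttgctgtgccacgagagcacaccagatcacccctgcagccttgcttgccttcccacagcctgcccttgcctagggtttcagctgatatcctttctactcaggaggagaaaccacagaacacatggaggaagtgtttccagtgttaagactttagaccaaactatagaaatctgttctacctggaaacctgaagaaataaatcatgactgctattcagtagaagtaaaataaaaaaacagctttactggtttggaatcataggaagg
The central 300 bp of region 42, the strongest region near an ESR1 TSS, are shown with their AP-1 match, then their AP-2 match, in capitals, and the 250 bp that precede the first TSS of the exon 1 group are shown as the start of its promoter.
Region 42, chr6:151803830-151804129: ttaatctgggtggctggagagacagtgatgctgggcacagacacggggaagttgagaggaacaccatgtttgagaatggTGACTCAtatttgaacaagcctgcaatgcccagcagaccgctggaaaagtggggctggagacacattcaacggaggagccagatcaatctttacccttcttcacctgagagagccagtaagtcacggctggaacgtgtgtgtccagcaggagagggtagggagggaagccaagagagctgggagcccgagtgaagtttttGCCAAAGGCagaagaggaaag
Before exon 1, chr6:151806946-151807195: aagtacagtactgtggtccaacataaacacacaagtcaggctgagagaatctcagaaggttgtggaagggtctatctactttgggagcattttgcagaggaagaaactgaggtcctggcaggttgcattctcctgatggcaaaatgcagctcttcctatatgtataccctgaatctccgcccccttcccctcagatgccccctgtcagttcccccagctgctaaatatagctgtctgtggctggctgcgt

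The 83 regions were spread over the whole window of 872929 bp, with 55 in the ESR1 body, 15 in the upstream flank and 13 in the downstream flank. The strength of a peak was read from its fold enrichment, the ratio deposited by the authors of the stacked reads at its highest base to the background of the peak caller. Its percentile is the share of peaks of the same replicate with a lower fold enrichment, and for a region the mean over the replicates is given. The median percentile was 64.8 over the 83 regions, 55.1 over the 11567 regions of chromosome 6 and 56.0 over all regions. Over the 61 regions more than 3 kb from any annotated TSS it was 54.9, near the 53.2 of all such regions. These 61 were 73.5% of the ESR1 regions, beside 65.9% of all regions. At or above percentile 90 stood 8 regions (9.64%), beside 11.5% of all regions.

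**Figure D1:**
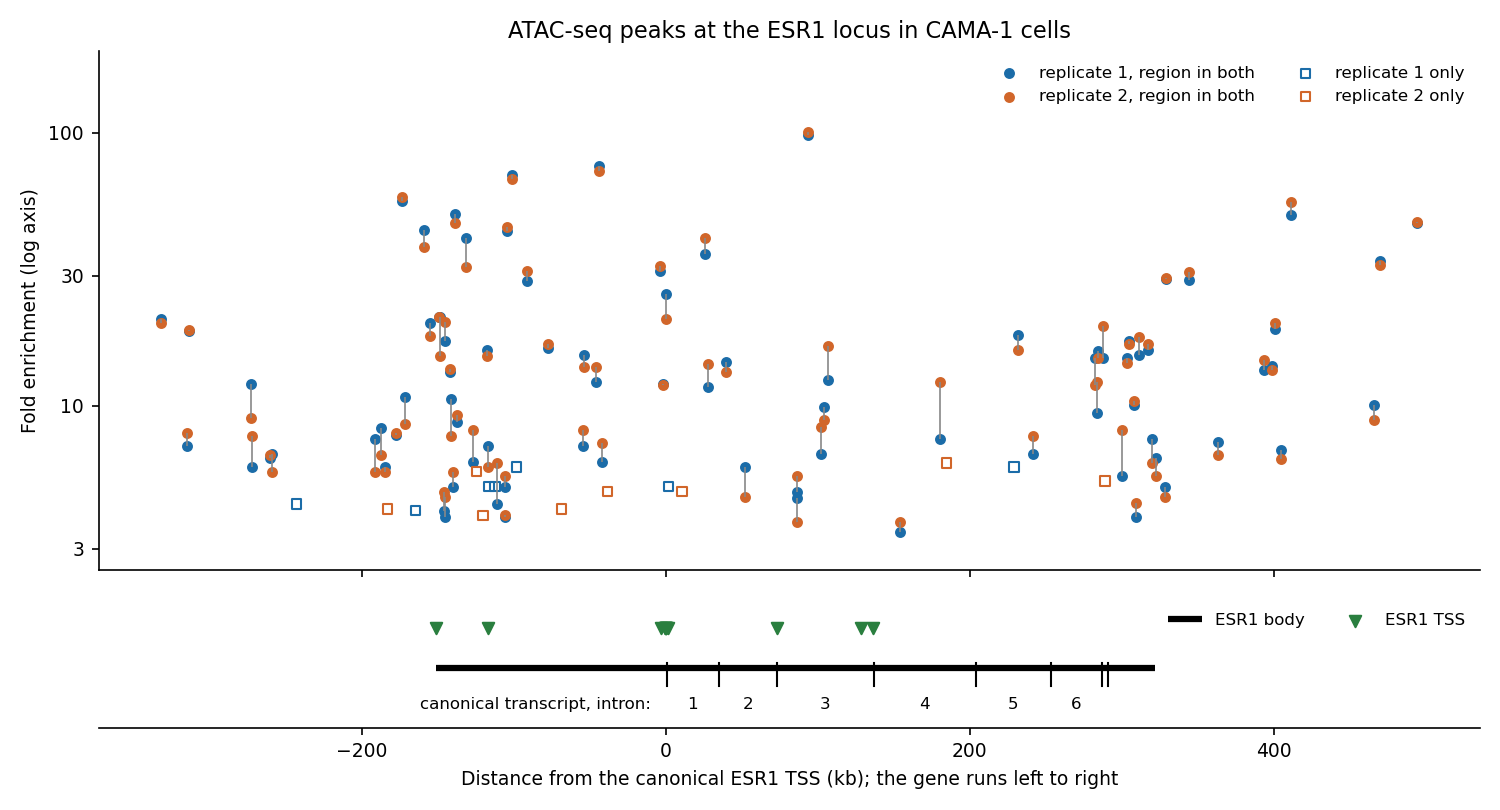
Fold enrichment (log axis) of each peak at the ESR1 locus in both CAMA-1 replicates against its distance in kb from the canonical ESR1 TSS, with the gene body, its introns by number and its TSSs drawn to scale underneath. Lines join the replicates of a region, and open squares are peaks of 1 replicate. Region 51 in intron 3 stands highest, at 98.0 and 101, the body before the canonical TSS is dense with regions, and introns 4 and 5 hold few.

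Both replicates called nearly the same regions. In replicate 1, 83 of 90 peaks were found again in replicate 2, or 92.2% (95% Wilson interval 84.8 to 96.2%), beside 90.2% of all its peaks. In replicate 2, 84 of 92 peaks were found again, or 91.3% (83.8 to 95.5%), beside 84.7% of all. The 15 peaks without a partner were weak. Those of replicate 1 had fold enrichments of 4.14 to 5.98 and those of replicate 2 of 3.98 to 6.19. The strongest of replicate 2 lay in intron 4, at chr6:151992149-151992387, and in replicate 1 a peak at chr6:151709463-151709640 and one in intron 5 at chr6:152036757-152036998 shared the highest value.

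Across the 83 regions, the fold enrichment of replicate 2 was 0.721 to 1.60 times that of replicate 1, with a median of 1.02. It was higher in replicate 2 in 46 regions and lower in 37. The number of stacked reads at the highest base of each peak, its height, was recovered from the steps of the fold enrichments, and the exact 95% Poisson intervals of the heights in both replicates overlapped in all 83 regions. Neither this count nor that of higher and lower regions was made over all regions, so neither is a result about ESR1. The median ratio over all regions was also 1.02. Spearman's rho between the replicates was 0.966 over these regions and 0.950 over all regions, as a description across regions that share 2 libraries. The lowest ratio was that of region 17 near the 5′ end of the gene, with fold enrichments of 21.2 and 15.3, and the highest that of region 56 in intron 4, with 7.59 and 12.2.

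**Figure D2:**
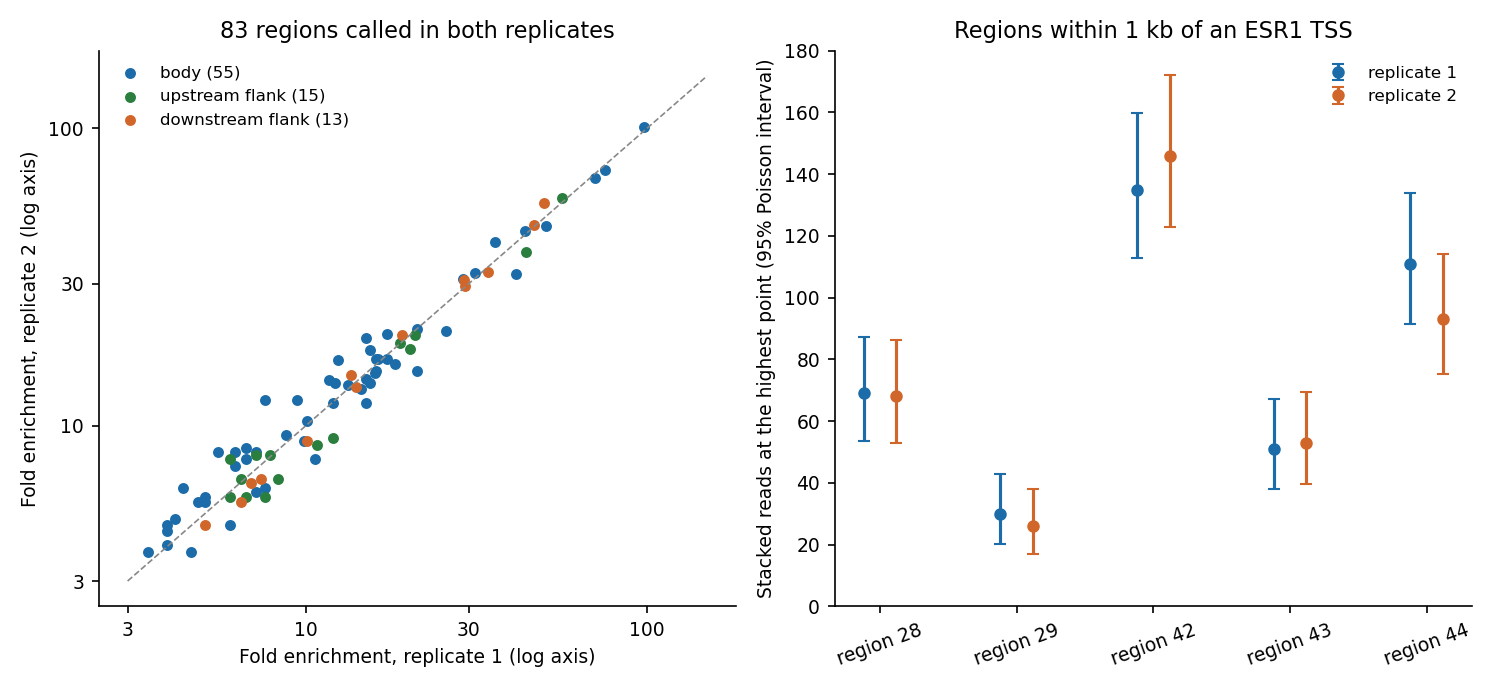
The left panel plots the fold enrichment of the 83 regions in replicate 2 against replicate 1 on log axes, coloured by body and flanks, with a dashed line of equality. The right panel gives the height, in stacked reads, of the 5 regions within 1 kb of an ESR1 TSS with exact 95% Poisson intervals for counting error. The points lie along the line, and the intervals of the replicates overlap in each of the 5 regions.

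ESR1 has 14 annotated transcripts that start at 12 distinct TSSs, and these fall into 8 groups when TSSs less than 500 bp apart are joined. Of the 12 TSSs, 6 lay inside a region, beside 50.7% of the 146431 distinct TSSs of protein-coding genes, and 8 lay within 1 kb of one, beside 63.9%. ESR1 was thus among the 79.4% of protein-coding genes with a region within 1 kb of at least 1 TSS. Groups with a region were those at −117186 bp, at −3251 bp, around the canonical TSS and at 1425 bp, all counted from the canonical TSS at position 151807682. The TSS at −150991 bp and those at 72975, 128448 and 136490 bp had none.

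The canonical promoter was open but moderate in height. Region 44, at chr6:151806914-151808684, covered all 5 TSSs of the exon 1 group, from −486 to 423 bp, together with the first coding exon, and was the only region that overlapped ESR1 coding sequence. Its fold enrichments were 25.8 in replicate 1 and 20.8 in replicate 2, with heights of 111 (95% Poisson interval 91.3 to 134) and 93 (75.1 to 114) stacked reads. It stood at percentile 79.2, and 16 of the 83 regions stood higher. It was at the same time the widest region of the locus, at 1771 bp, against a median of 366 bp.

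Region 44 was also the most GC-rich region, with a GC content of 61.9% and an observed-to-expected CpG ratio of 0.761. A GC content of at least 50% and a CpG ratio of at least 0.6 were reached by 3 of the 83 regions (3.61%), beside 6.58% of all regions, with both limits chosen after the regions had been seen. The others were region 3 at the first TSS of CCDC170 and region 83 over a TSS of SYNE1, so that all 3 lay at a TSS. Most such regions did so on all chromosomes, where 12510 of 14162 lay within 1 kb of a TSS. The median GC content was 46.8% at the locus and 49.1% over all regions.

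A stronger region preceded the canonical promoter. Region 42, at chr6:151803703-151804258, ended 173 bp before the TSS of transcript ESR1-202 at −3251 bp and had fold enrichments of 31.3 and 32.5 and heights of 135 and 146 stacked reads. At percentile 85.3 it was the strongest region within 1 kb of any ESR1 TSS. Region 43, between it and the canonical promoter, was lower, with 12.0 and 11.9, and covered a TSS that RefSeq places at −1977 bp but GENCODE does not list. Regions 42, 43 and 44 thus formed a row of 3 open regions that spanned chr6:151803703-151808684.

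The distal promoter of transcripts ESR1-203 and ESR1-207, at −117186 bp, was the weakest of those with a region. Region 29 over this TSS had fold enrichments of 7.13 and 5.97 and stood at percentile 38.6. Its neighbour, region 28, ended 322 bp before the TSS and was higher in both replicates, with 16.1 and 15.3. Around the most upstream TSS, of ESR1-211, the nearest region was region 16, 1290 bp away, with 21.2 in both replicates. The internal TSSs of ESR1-205, ESR1-214 and ESR1-212 were 13062, 21264 and 17754 bp from the nearest region. Of 6 RefSeq promoter windows of ESR1, each of 300 bp, 4 overlapped a region, beside 53.8% of all 35116 such windows.

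Set beside other genes, the promoters of ESR1 were not among the most open. Its strongest region within 1 kb of a TSS, region 42, stood above those of 28.8% of the 15904 protein-coding genes with such a region, for which the median percentile was 92.6. In both replicates, none of the 5 regions within 1 kb of an ESR1 TSS reached the fold enrichment of the strongest regions away from them. The 48 body regions more than 3 kb from an ESR1 TSS ran from percentile 2.94 for region 55 in intron 4, with fold enrichments of 3.45 and 3.76, to 98.3.

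Region 51 in intron 3, at chr6:151900500-151901882, was the strongest of the locus. Its fold enrichments were 98.0 and 101, with heights of 425 and 456 stacked reads, and it was 1383 bp wide. It ranked 1264 of the 141872 regions that lay over 3 kb away from every TSS, and 86 of 8217 on chromosome 6, and lay 19843 bp from the nearest TSS.

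Regions 40 and 34 followed, both in the long stretch of the body that precedes the canonical TSS. Region 40, at chr6:151763414-151764612, had fold enrichments of 75.5 and 72.3 and stood at percentile 96.2. Region 34, at chr6:151706343-151707106, had 70.4 and 68.1 and stood at 95.7. Both replicates placed regions 51, 40 and 34 in this order. The 95% Poisson intervals of the heights of regions 40 and 34 overlapped, so counting error covers their difference. In replicate 1 these heights were 327 (293 to 364) and 305 (272 to 341), and in replicate 2 326 (292 to 363) and 307 (274 to 343). The intervals of region 51, 386 to 467 and 415 to 499.8, lay above both.

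The strongest regions of the upstream flank were region 12, at chr6:151633359-151634275, with fold enrichments of 56.4 and 58.2, and region 14, at chr6:151647853-151649000, with 44.2 and 38.3. Region 1, with 20.9 and 20.1, came next, with region 15, at 20.2 and 18.1, and region 3 at the CCDC170 TSS, at 18.9 and 19.0, close behind. The whole downstream flank lies in SYNE1 (chr6:152121687-152637801), so each of its regions does as well. SYNE1 encodes a spectrin-repeat protein of the nuclear envelope and runs on the reverse strand. The 3 strongest regions of this flank were regions 80, 83 and 82. Region 80, at chr6:152218766-152219236 and 381 bp from a TSS, had 49.9 and 55.9. Region 83, at chr6:152301619-152302583, had 46.7 and 47.3 over a TSS, and region 82, at chr6:152277716-152278342, had 34.1 and 32.9. The lists do not tell which gene a flank region serves.

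Of the protein-coding genes in the window, CCDC170 had a region within 1 kb of 2 of its 3 TSSs. SYNE1 had one within 1 kb of 6 of the 24 TSSs that lay in the window. Over all protein-coding genes, 63.9% of TSSs had a region this near. ARMT1 overlapped the window at its start, with no TSS and no region inside it. The body of ESR1 carried 55 regions, that of SYNE1 15 within the window and that of CCDC170 7. The lengths of these bodies inside the window differ, with ESR1 the longest, so the counts do not compare densities.

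Along the gene the regions were unevenly spaced. The 150991 bp between the most upstream TSS and the canonical TSS held 28 of the 55 body regions, or 50.9%, on 31.9% of its length. This was 18.5 regions per 100 kb, beside 11.6 for the whole body, 6.77 for chromosome 6 and 6.97 for all chromosomes. Counted in each replicate alone, the stretch held 20.5 and 21.9 peaks per 100 kb. Regions covered 10.6% of its bases, and their median percentile was 65.7.

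Introns 1, 2, 4 and 5 held 2 regions each, or 5.84, 5.28, 2.98 and 4.07 per 100 kb, beside the 6.97 of all chromosomes. For introns 1 and 2, of 34232 and 37867 bp, a count of 2 is too small to be read as a lack of regions. Intron 1 held 8.76 peaks per 100 kb in each replicate, and the same density over all chromosomes was not computed for single replicates. Counted in each replicate alone, intron 4 held 2.98 and 4.47 peaks per 100 kb and intron 5 held 6.10 and 4.07, beside 5.28 in both replicates for intron 2, so that at 2 or 3 peaks each the order of introns 2 and 5 changed with the replicate. From the end of region 54, 107 kb past the canonical TSS, to the start of region 59 at 282 kb, 175 kb held only 4 regions. Intron 3 held 6 regions whose median percentile was 49.8 although it contained region 51. The longest stretches without a peak in either replicate were 54495 bp in the downstream flank, 51343 bp in the upstream flank and, inside the gene, 47059 bp from intron 3 into intron 4.

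Past the canonical end of ESR1-201, where other transcripts continue for 26345 bp, the density was 30.4 per 100 kb in each replicate and in the joined regions, from 8 regions with percentiles of up to 72.4. Other genes overlap this stretch, with regions 65, 66 and 67 in ENSG00000284615 and regions 69 and 70 in SYNE1. Region 65, at percentile 72.4, lay over a TSS of another gene. Intron 7 held 1 joined region over 4163 bp, from 1 peak in replicate 1 and 2 peaks in replicate 2, so that its density of 24.0 rests on a single region. The flanks had 7.50 and 6.50 regions per 100 kb, near the level of all chromosomes. Over the whole locus, 34 of the 82 spacings between neighbouring midpoints were under 3 kb, and the median spacing was 4035 bp. Spacings were not measured over all regions, so neither value is a result about ESR1.

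**Figure D3:**
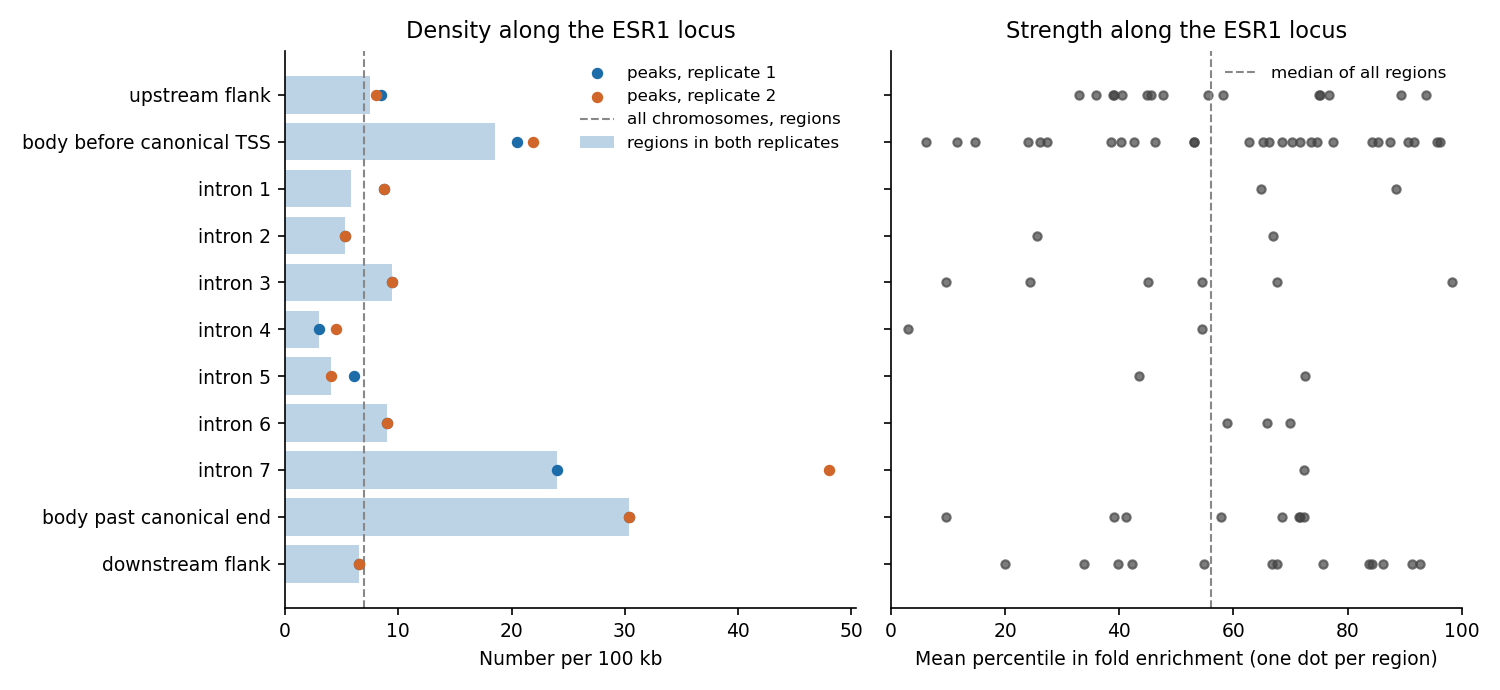
The left panel gives regions called in both replicates per 100 kb (bars) and peaks of each replicate per 100 kb (dots) for each segment of the ESR1 locus, with the density over all chromosomes as a dashed line. The right panel gives the mean percentile of each region in fold enrichment, with the median of all regions, 56.0, dashed. The bars of the body before the canonical TSS (18.5) and past its canonical end (30.4) stand above the dashed line. Those of introns 1 (5.84), 2 (5.28), 4 (2.98) and 5 (4.07), each from only 2 regions, and of the downstream flank (6.50) stand below it.

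Some regions shared sequence with each other. Regions 17, 24 and 38, all in the body before the canonical TSS, aligned pairwise over 263 to 309 columns at 81.2 to 83.3% identity, with shorter alignments to regions 2 and 1. Region 24 was the strongest of these, with fold enrichments of 50.4 and 46.9. These alignments were sought after the sequences of the strongest regions had been seen.

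Sequence of region 51 recurred outside the locus. It matched 2909 other places in hg38 over at least 200 columns, of which 595, or 20.5% (95% Wilson interval 19.0 to 22.0%), overlapped a region called in both replicates. Of the bases of these places, 11.9% lay under such regions, beside 3.68% of all bases. The highest identity of another place was 87.7%. Filters on reads that map to several places are not given in the sources used here, and their part in the height of region 51 was not tested.

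In the central 300 bp of each region, letters of 7 binding motifs were searched on both strands, and a stretch could count for more than 1 motif. The estrogen response element GGTCANNNTGACC was found in 0 of 83 regions, which allows a share of up to 4.42% by the Wilson interval, beside 0.0902% of all regions. At so low a background, the count of 0 is not a result about ESR1. With 1 mismatch allowed, a choice made after the exact count was seen, 2 regions (2.41%, 0.663 to 8.37%) held it, beside 1.17% of all regions. They were region 16, near the most upstream TSS, with the site GGTtAGTTTGACC at chr6:151658265-151658277, and region 8 in the upstream flank, with GGgCAGCTTGACC at chr6:151616377-151616389, where lower case marks the mismatch.

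The forkhead motif TGTTTAC, of the family of FOXA1, was found in 7 regions (8.43%, 4.15 to 16.4%), beside 7.38% of all regions. The GATA motif AGATAA was found in 16 regions (19.3%, 12.2 to 29.0%), beside 14.3%, and the AP-1 motif TGANTCA, bound by the dimers of JUN and FOS, also in 16 (19.3%), beside 13.5%. Region 50 in intron 3 held both forkhead and GATA letters, and its fold enrichments were 4.83 and 5.53. Regions 62 and 72 held both GATA and AP-1 letters, and region 62 in intron 7 held the AP-1 motif at 2 places. The share of all regions with such pairs was not counted, so the pairs are not a result about ESR1.

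The AP-2 motif GCCNNNGGC was found in 11 regions (13.3%, 7.56 to 22.2%), beside 15.6% of all, the CTCF motif CCANNAGNNGGC in 3 (3.61%, 1.24 to 10.1%), beside 5.64%, and the ETS motif CCGGAAG in 0 (up to 4.42%), beside 2.21%. The 3 regions with CTCF letters were region 44 at the canonical promoter, region 65 in the body past the canonical end and region 77 in the downstream flank. For each of the 7 motifs the interval of the ESR1 share held the share over all regions. None of the motifs was found in 42 of the 83 regions (50.6%), beside 52.0% of all, and regions 51, 40 and 34 were among these 42.

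**Figure D4:**
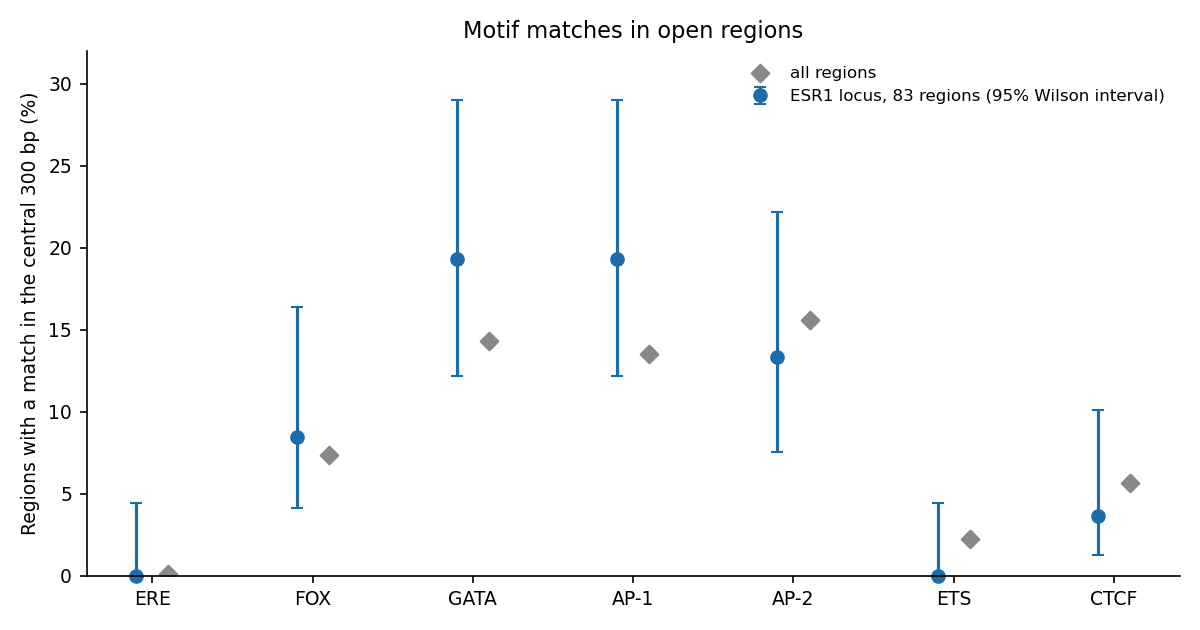
Share of regions, in percent, with at least 1 match to each motif in the central 300 bp, for the 83 ESR1 regions (circles, 95% Wilson intervals for counting error) and for all 215195 regions (diamonds). The interval of the ESR1 locus covers the share of all regions for each motif.

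The density of the ESR1 body, 11.6 regions per 100 kb, was higher than that of 75.3% of the 3667 protein-coding genes of at least 100 kb, with rank 906, a median of 6.67 over these genes and a maximum of 49.8. Among the genes nearest to it in density were CUL1, with 12 regions, RPTOR, with 49, and RERG, with 28, all at 11.6 per 100 kb. Likeness in density says nothing of strength or position.

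The ESR1 body, with 55 regions, was set beside ESR2, PGR, NR3C1 and NR3C2, which encode related nuclear receptors of the steroid receptor family. In each replicate alone it held 12.7 and 13.3 peaks per 100 kb, or 13.0 ± 0.449 (SD, n = 2). This was above NR3C1, the glucocorticoid receptor gene, with 9.52 and 10.8, and PGR, the progesterone receptor gene and a target of estrogen receptor alpha, with 8.98 and 6.99. NR3C2, the mineralocorticoid receptor gene, with 6.01 and 6.29, and ESR2, the gene for estrogen receptor beta, with 5.51 and 6.30, overlapped each other. No other neighbours among these genes overlapped, and with 2 replicates no test was made. With 200 kb added on either side, the order was another, since NR3C1 then had 91 regions, or 16.3 per 100 kb, and ESR1 its 83, or 9.51, while NR3C2 had 7.44, PGR 7.00 and ESR2 6.12.

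At their TSSs the order differed again. The strongest TSS region of ESR1, with fold enrichments of 31.3 and 32.5, was lower in both replicates than those of NR3C1 (82.8 and 88.7) and NR3C2 (129.8 in both), and higher than that of PGR (19.8 and 21.7). ESR2 had 114 in both, in a region that also lay within 1 kb of a TSS of another gene, ENSG00000214770. A region was found near 8 of 12 TSSs of ESR1, 4 of 10 of ESR2, 4 of 6 of PGR, 14 of 16 of NR3C1 and 5 of 9 of NR3C2. Copy number, which can set the level of whole loci, was not analysed here.

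**Figure D5:**
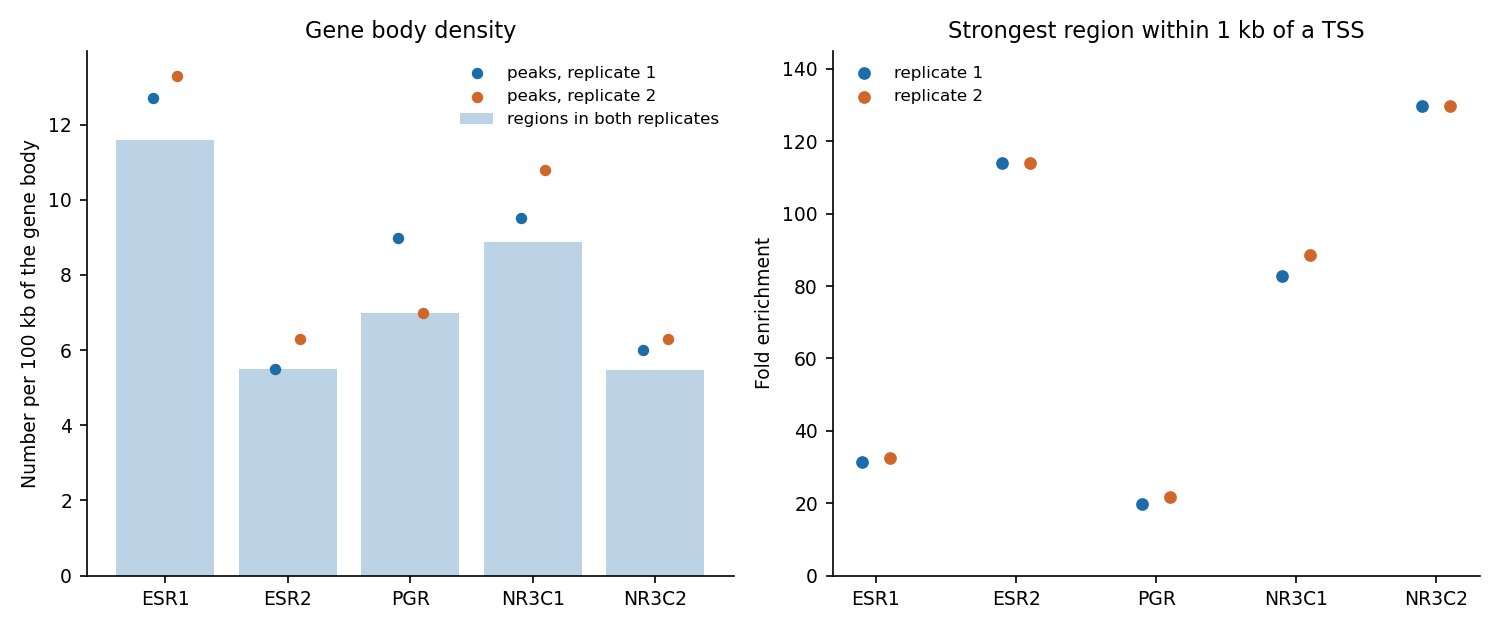
The left panel gives regions called in both replicates per 100 kb of gene body (bars) and peaks per 100 kb in each replicate (dots) for ESR1 and 4 other steroid receptor genes. The right panel gives the fold enrichment of the strongest region within 1 kb of a TSS in each replicate. ESR1 stands above the other genes plotted in density of the body, though not with flanks included, and at its TSSs above PGR but below ESR2, NR3C1 and NR3C2.

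The partners of the receptor had a region at their TSSs, as did 79.4% of protein-coding genes, for which the median percentile was 92.6. All 6 pioneer factors and partners listed had a region within 1 kb of a TSS, at percentiles of 91.8 to 99.3 (median 98.1), among them FOXA1, with fold enrichments of 84.9 and 90.2, GATA3, with 48.3 and 50.0, and TFAP2C, an AP-2 factor, with 90.9 and 104. All 7 coregulators listed had one as well, at 85.8 to 96.0 with a median of 92.6, the same as over all genes with such a region, such as NCOA3, a p160 coactivator, with 67.9 and 75.8, and NRIP1, a ligand-dependent corepressor, with 43.7 and 51.5.

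All 12 target genes listed had a region, beside 79.4% of protein-coding genes, at a median percentile of 97.2, beside 92.6. GREB1, a cofactor of the receptor that estrogen induces, had fold enrichments of 91.8 and 87.6, and TFF1, a secreted trefoil peptide, had 34.7 and 31.4. CCND1, which encodes cyclin D1, had 257 and 258, in a long region at chr11:69640075-69660566 that also lay near a TSS of LTO1. The highest point of this region may lie away from the CCND1 TSS. AGR3 was the weakest, with 4.83 and 6.19 at percentile 27.7. Of these 25 genes, 23 had a stronger TSS region than ESR1 by mean percentile, the exceptions being PGR and AGR3, and of all genes with a TSS region 71.2% did.

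The labelled cell type was checked with markers. All 7 luminal markers (KRT8, KRT18, KRT19, EPCAM, CDH1, GATA3 and FOXA1) had a region within 1 kb of a TSS, beside 79.4% of protein-coding genes, at percentiles of 91.8 to 99.6 with a median of 97.5, beside 92.6. Of the blood markers, PTPRC, CD3E and SPI1 had none. The 3 fibroblast markers also had regions, with 73.4 and 67.2 at COL1A1, 17.5 and 19.0 at COL1A2 and 64.7 and 67.2 at PDGFRB. Their percentiles were 74.0 to 95.8 with a median of 95.2, also above 92.6. The check thus did not set luminal markers apart from fibroblast markers. Whether cells of another type took part in any value was not tested.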

How the data were processed

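ATAC-seq peaks of CAMA-1 cells were used from 2 biological replicates of a single condition. According to the labels and methods, the authors trimmed the reads with Trim Galore 0.6.5, aligned them with Bowtie2 2.3.5.1 to hg38 and called peaks with MACS2 2.2.6 in each replicate without pooling. MACS2 settings, the treatment of duplicates and excluded regions are not given in the sources used here. The authors deposited, per peak, a score (10 times the −log10 q, cut to a whole number), a fold enrichment (a ratio to background), and the −log10 p-value and −log10 q-value. The deposited lists hold neither read counts nor summits, so library depth is unknown from them.

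Replicate 1 had a median fold enrichment of 8.28 and a lowest −log10 q of 2.24, and replicate 2 had 7.96 and 2.07. All fold enrichments were whole multiples of 0.230 or 0.221, within 0.01 of a step, which gave each height and a background of 3.35 and 3.52 stacked reads. Intervals are 95% and cover counting error only.

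Peaks overlapping by at least 1 bp were joined with Python 3.11.15, numpy 2.4.6 and scipy 1.17.1. Midpoints stood for summits and placed regions in segments. Genes, exons and TSSs came from GENCODE release 44, and RefSeq promoter windows from GRCh38.p14. Sequences were read from hg38 and aligned with blastn 2.17.0 (E-value of at most 1e-10). The functions were tested on simulated data.

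Regions were named if they lay within 1 kb of an ESR1 TSS, held the ERE motif, or were among the 3 strongest of the body away from TSSs or of either flank. Peaks of 1 replicate were named if strongest in their replicate, and other genes if they were in the window, in a fixed list or among the 4 nearest in density. Other regions were named after their values were seen. The members, lists and motifs were chosen with earlier results of these data known. Some genes of these lists and rules, and 1 sequence, are not reported here. Alternatives were a limit of 10 on −log10 q, the strongest 50000 peaks, a reciprocal overlap of 50%, other flanks, TSS distances and motif windows, other measures of strength and each replicate left out.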

Additional observations from a re-analysis of the deposited data

How the results depend on the processing

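Of 57 alternative values for 14 results, 41 stayed within the range set for them and 16 did not. With the 50000 strongest peaks of each replicate, 16 regions of the ESR1 locus were left, the body held 1.90 per 100 kb, and its percentile among genes was 67.4. That percentile was 76.5 with a limit of 10 on −log10 q, 74.6 where replicates had to share 50% of each peak and 78.0 without regions within 1 kb of any TSS. With each replicate left out in turn it ranged from 73.8 to 73.9, and the number of regions from 90 to 92, since a single list then counts in place of the overlap. The median percentile of the regions fell to 57.8 with flanks of 500 kb, and was 62.2 to 63.8 with a replicate left out. Motif shares within 50 bp of the midpoint were lower, as the window is shorter, with 3.61% for forkhead, 6.02% for GATA, 6.02% for AP-1, 4.82% for AP-2 and 1.20% for CTCF, and AP-2 reached 24.1% within 250 bp. The 1-mismatch search for the estrogen response element was added after seeing the data.

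No paired analysis was possible because the data hold 1 group and none of the results comes from a test. With 2 replicates, spread is known only as the difference of a pair, and heights of 14 to 30 reads, as at regions 55 and 29, have wide intervals. The lists give no signal outside peaks, so a TSS without a peak was below the threshold of the caller rather than shown to be closed.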
